A study of Mus musculus with 6 samples.

Results

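Pcsk6, which encodes a secreted proprotein convertase, had a mean signal 4.74 times as high in glomeruli whose podocytes lacked Vhl as in wild-type glomeruli, while the Furin, Pcsk7 and brightest Mbtps1 signals differed between genotypes by less than the spread between arrays. The probe sets of Pcsk5 disagreed with each other, and Pcsk4 and Corin were too dim for the gene test. The genes described are 7 processing proteases: Pcsk6, Furin, Pcsk5, Pcsk7, Pcsk4, Mbtps1 and Corin. They were taken by the symbol that the array's annotation gives each probe set, which yielded 13 probe sets of the 34945 that carry a single symbol, or 7 of 18193 genes. The members were chosen by family around Pcsk6, which was selected on its signal difference between these same arrays, so the differences of its members between genotypes are descriptions here and carry no test.

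Glomeruli, the filtering units of the kidney, had been isolated with perfused magnetic beads from 6 female mice aged 6 weeks. In 3 mice (Vhl-deleted) a podocin-Cre transgene (Pod-Cre), active in podocytes, the epithelial cells that wrap the glomerular capillaries, had excised a floxed von Hippel-Lindau gene. The 3 controls were littermates that the labels call wild-type; the crosses used parents homozygous for the floxed allele with a single copy of Pod-Cre, and no source used here gives the alleles the controls carry. Vhl-deleted mice had been chosen for urinary albumin no higher than the mean of wild-type littermates. Each mouse gave 1 Affymetrix array, so n = 3 arrays per group throughout, and that number limits the precision of every value. Signals are deposited MAS5 intensities, and a difference is Vhl-deleted minus wild-type in log2(signal + 28), a scale that makes the differences of dim probe sets smaller than the ratio of their signals.

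Proprotein convertases are serine proteases of the subtilisin type that cut precursor proteins after basic residues in the secretory pathway, at the cell surface or in the matrix. Their substrates include growth factors, receptors, integrin chains and the proforms of metalloproteinases. Furin, Pcsk5, Pcsk6, Pcsk7 and Pcsk4 cut at basic sites, Mbtps1 (site-1 protease) cuts at other motifs and releases membrane-bound transcription factors, and Corin is a transmembrane serine protease of the trypsin type that converts the natriuretic peptide precursor. The Vhl protein directs hypoxia-inducible factors (HIF) to degradation when oxygen is present, and in cultured cells Furin has been described as a HIF target.

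The sequences upstream of Pcsk6 and Furin are shown because Pcsk6 is the member that stood apart and Furin the best-known convertase of the family. They are the 250 bases before the annotated start, from RefSeq promoters of build GRCm38.p6, and 6 of the 7 members matched an entry there. Capitals mark ACGTG or GCGTG, the core letters that HIF binds, or their reverse complements CACGT and CACGC. Pcsk6 lies on chromosome 7 from 65862136 to 66050386, and its window is chr7:65861886-65862135 on the plus strand. Furin lies on the same chromosome from 80389194 to 80405441 on the minus strand, with windows for 2 starts at chr7:80405437-80405686 and chr7:80402813-80403062.
Pcsk6: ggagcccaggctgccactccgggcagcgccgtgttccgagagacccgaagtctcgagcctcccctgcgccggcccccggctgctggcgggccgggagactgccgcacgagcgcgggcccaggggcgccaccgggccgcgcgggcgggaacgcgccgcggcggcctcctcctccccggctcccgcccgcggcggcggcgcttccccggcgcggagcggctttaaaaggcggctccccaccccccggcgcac
Furin, upstream start: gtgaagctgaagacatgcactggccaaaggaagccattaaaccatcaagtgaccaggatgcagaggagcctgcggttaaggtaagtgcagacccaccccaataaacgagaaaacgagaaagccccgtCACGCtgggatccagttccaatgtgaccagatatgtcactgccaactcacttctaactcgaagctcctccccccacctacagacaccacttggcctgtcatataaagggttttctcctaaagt
Furin, downstream start: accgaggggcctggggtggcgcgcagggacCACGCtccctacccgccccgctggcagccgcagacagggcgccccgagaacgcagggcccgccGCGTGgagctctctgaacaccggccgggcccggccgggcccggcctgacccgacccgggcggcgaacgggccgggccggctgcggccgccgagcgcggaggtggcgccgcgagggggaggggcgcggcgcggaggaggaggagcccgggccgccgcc

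The Pcsk6 window held 0 matches to these letters. The upstream Furin window held 1 match, GCGTG on the opposite strand, 123 bases before the start, and the downstream Furin window held 2, at 220 and 157 bases before the start. Among the other members the Mbtps1 window held 3 matches, the Corin window 1 (ACGTG), and the Pcsk5 and Pcsk7 windows 0. Of 32851 such windows of mouse genes, 38.6% held at least 1 match, 16.6% for ACGTG and 28.2% for GCGTG. None of the matches in the members lay within CACGTG, the E-box letters that contain ACGTG. A match is only a run of letters, and its absence says only that these letters are not in these 250 bases.

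Vhl was read first as a check of the labels. Its brighter probe set (1434708_at) had signals of 611, 619 and 606 in Vhl-deleted arrays, against 809, 665 and 707 in wild-type arrays. The groups did not overlap, with the Vhl-deleted arrays lower, which held for 5.64% of all genes tested, and the difference of -0.23 did not pass limma's test over all genes (SE 0.12, adjusted p = 0.944). The dimmer probe set (1421071_at) had 233, 196 and 216 in Vhl-deleted arrays, against 228, 237 and 273 in wild-type arrays, and its groups overlapped. Glomerular cells other than podocytes keep the gene, and no source used here places the probes inside or outside the floxed region. Over the 11159 genes tested, limma called 8 that rose (percent called 0.0717) and 1 that fell (0.00896). Pcsk6 was 1 of the 8, which is why the family was chosen, and nothing further is read from that count. Of 18 tested targets of HIF, 17 had a positive difference (median 0.73) and 14 were higher at an unadjusted limma p under 0.05. That share was 2.51% over all genes tested, and the list was chosen with earlier results of these data known. At the adjusted threshold 3 rose by limma. They were the prolyl hydroxylase gene Egln3, with a difference of 4.63 (adjusted p = 9.74e-05), and the glycolysis genes Pfkl and Pkm. Pfkl had a difference of 1.24 (limma adjusted p = 0.00595) and Pkm one of 1.05 (limma adjusted p = 0.0172). Egln3 passed with each array left out in turn, while Pfkl did not pass without Vhl-deleted replicate 1 or 2 or wild-type replicate 1 or 2 (limma adjusted p from 0.0513 to 0.114), nor Pkm without any of these or Vhl-deleted replicate 3 (from 0.0692 to 0.222).

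Marker genes of the glomerular cell types were read beside the family, and by limma 0 of them passed in any list. At an unadjusted limma p under 0.05, 6 of 9 immune, 2 of 12 mesangial, 1 of 7 parietal and 1 of 15 podocyte markers were higher. At the same threshold 2 podocyte and 1 of 14 endothelial markers were lower, and 0 of 20 tubule markers passed. Over all genes tested the shares were 2.51% higher and 2.41% lower. The podocyte gene Nphs1, which encodes nephrin of the slit diaphragm, was bright in all arrays and lay between 4827 and 5720 in Vhl-deleted and between 5679 and 9142 in wild-type arrays. Of the 15 podocyte markers tested 12 had a negative difference, and their summed signal ran from 113294 to 136375 in Vhl-deleted and from 121857 to 161037 in wild-type arrays. All 20 tubule markers tested had a positive difference, with sums from 122253 to 199262 in Vhl-deleted and from 45323 to 157208 in wild-type arrays; the lowest sum is that of wild-type replicate 3, without which the median difference of the list was -0.05 instead of 0.56. The sums of the 9 immune markers ran from 9003 to 13086 in Vhl-deleted and from 5112 to 7499 in wild-type arrays, without overlap. Those of the 12 mesangial and smooth muscle markers ran from 61487 to 66487 in Vhl-deleted and from 50930 to 61382 in wild-type arrays, with a narrow gap. By mean log2 level the mesangial groups overlapped, at 11.31 to 11.50 in Vhl-deleted and 11.03 to 11.41 in wild-type arrays. The immune groups did not, at 9.59 to 9.99 in Vhl-deleted and 8.84 to 9.40 in wild-type arrays. The sums of the 14 endothelial and of the 7 parietal epithelial markers overlapped between genotypes. No defining marker on the array was at 0, and in bulk RNA more cells of a type cannot be told apart from more RNA per cell.

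Pcsk6 (PACE4) is secreted and binds heparan sulfate proteoglycans of the matrix, and it is known for cutting precursors of the transforming growth factor beta superfamily such as Nodal and Lefty. Its single probe set (1426981_at) had signals of 7340, 7080 and 6303 in Vhl-deleted replicates 1, 2 and 3, against 1275, 1261 and 1836 in wild-type replicates 1, 2 and 3. All Vhl-deleted arrays lay far above all wild-type arrays, and the spread within each genotype was small beside the gap. The mean was 6908 ± 540 in Vhl-deleted and 1457 ± 328 in wild-type arrays (SD, n = 3 each), a difference of 2.24 on the log2 scale with a pooled SD between arrays of 0.23. Any Vhl-deleted array set against any wild-type array gave a ratio of signals between 3.43 and 5.82. By size of the positive difference Pcsk6 ranked 7 of the 11159 genes. It was selected on its difference in these arrays, so the rank is only a description.

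The wild-type array with the highest Pcsk6 signal was replicate 3, which also had the lowest tubule and the highest podocyte and endothelial marker levels. Without that array the Pcsk6 difference was 2.42, and with the tubule marker mean of each array as a covariate it was 2.39. Over the other settings and arrays left out it lay between 2.15 and 2.43. The podocyte list had a median difference of -0.21, with 3 of its 15 markers positive and sums that overlapped between genotypes. The part of the podocyte, immune and mesangial markers in the Pcsk6 difference was not tested. With a single probe set, no other part of the Pcsk6 transcript was measured.

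**Figure D1:**
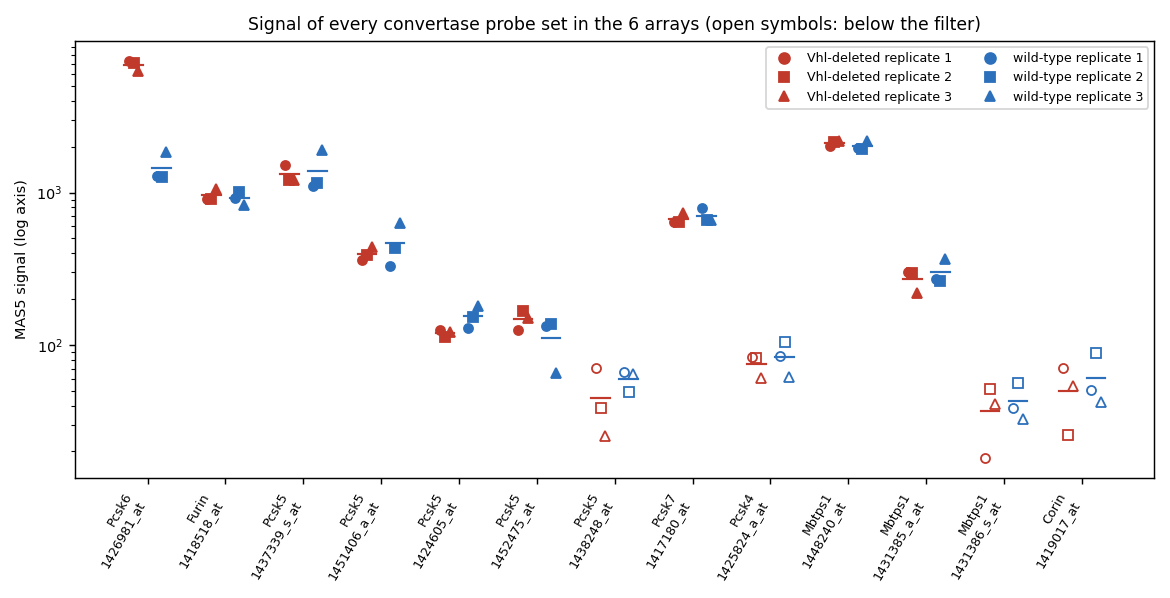
MAS5 signal (log axis) of the 13 probe sets of the 7 genes, Vhl-deleted arrays in red left of wild-type arrays in blue, a symbol shape for each replicate, short lines for group means and open symbols for probe sets below the filter. The Pcsk6 groups stand apart, at 6303 to 7340 in Vhl-deleted and 1261 to 1836 in wild-type arrays, while the other probe sets largely overlap.

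Furin, the widely expressed convertase of the trans-Golgi network, had signals of 910, 904 and 1060 in Vhl-deleted arrays, against 920, 1013 and 833 in wild-type arrays (1418518_at). The groups lay within each other's range. The means were 958 ± 88.4 in Vhl-deleted and 922 ± 90.0 in wild-type arrays (SD), a difference of 0.05 that is smaller than the pooled SD of 0.13, and its sign turned in 5 of 13 alternatives (lowest -0.04, highest 0.12).

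Pcsk7, a membrane-bound convertase of the trans-Golgi network, had signals of 641, 642 and 736 in Vhl-deleted arrays, against 795, 661 and 659 in wild-type arrays (1417180_at). Here too the groups overlapped. The difference was -0.06 with a pooled SD of 0.13, and it turned positive in 1 alternative.

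Pcsk5 is the convertase closest to Pcsk6 in domain structure and makes a soluble and a membrane-bound isoform in the mouse. It had 5 probe sets, 4 of them above the filter, and they did not lie the same way. The brightest (1437339_s_at) had signals of 1521, 1212 and 1214 in Vhl-deleted arrays, against 1110, 1154 and 1903 in wild-type arrays. Another probe set (1451406_a_at) had 362, 389 and 439 in Vhl-deleted arrays, against 332, 432 and 629 in wild-type arrays. In both, the groups overlapped and wild-type replicate 3 was the highest array, and the differences of -0.04 and -0.17 were below their pooled SDs of 0.33 and 0.32. Without wild-type replicate 3 they were 0.20 and 0.06.

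Probe set 1424605_at was at 126, 113 and 121 in Vhl-deleted arrays, against 130, 153 and 180 in wild-type arrays. Its groups did not overlap, with the Vhl-deleted arrays lower by a difference of -0.29 (pooled SD 0.15) and -0.19 without wild-type replicate 3, and the gap between the nearest arrays was narrow, at a ratio of 0.970. Probe set 1452475_at was at 125, 166 and 150 in Vhl-deleted arrays, against 133, 137 and 65.4 in wild-type arrays. In this probe set wild-type replicate 3 was the lowest array, the opposite of the other 3, and the difference of 0.37 (pooled SD 0.35) was 0.10 without it. The dim probe set (1438248_at) lay between 25.2 and 71.0 in Vhl-deleted and between 49.0 and 66.6 in wild-type arrays. No source used here says which Pcsk5 isoform each probe set reads, and a suffix of _s_at or _a_at marks probes that can match several transcripts.

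**Figure D2:**
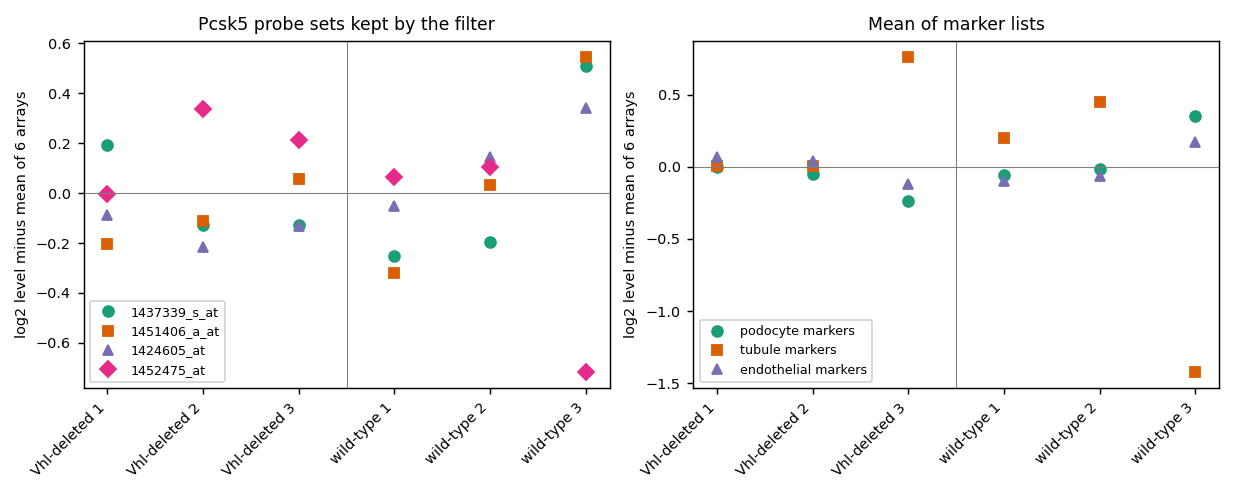
Left, the 4 Pcsk5 probe sets above the filter, and right, the means of the podocyte, tubule and endothelial marker lists, as log2 level minus the mean of the 6 arrays, Vhl-deleted arrays left of the vertical line and wild-type arrays right of it. In wild-type replicate 3 the tubule list and probe set 1452475_at are at their lowest, while the podocyte list, the endothelial list and the other 3 probe sets are at their highest.

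Across arrays, 3 Pcsk5 probe sets were thus highest in wild-type replicate 3, the array with the highest podocyte and the highest endothelial list mean. Its podocyte mean was 12.85, where the Vhl-deleted arrays were at 12.26 to 12.50 and wild-type replicates 1 and 2 at 12.44 and 12.48. Its endothelial mean was 12.34, where the Vhl-deleted arrays were at 12.05 to 12.23 and wild-type replicates 1 and 2 at 12.07 and 12.10. The tubule list mean of that array was 10.43, where the Vhl-deleted arrays were at 11.86 to 12.62 and wild-type replicates 1 and 2 at 12.05 and 12.30. With the tubule covariate the 4 differences were 0.16, -0.03, -0.22 and 0.16, in the order above.

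Pcsk4, known for its role in germ cells, was below the filter (1425824_a_at), with signals of 83.2, 82.4 and 60.7 in Vhl-deleted arrays, against 85.0, 105 and 61.6 in wild-type arrays. The groups overlapped, with a difference of -0.10 and a pooled SD of 0.24.

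Mbtps1, the site-1 protease of the Golgi, had its brightest probe set (1448240_at) at 2007, 2162 and 2189 in Vhl-deleted arrays, against 1947, 1934 and 2195 in wild-type arrays. These signals were among the most even of the family: the pooled SD was 0.09 and the difference 0.07. A dimmer probe set (1431385_a_at) was at 299, 298 and 220 in Vhl-deleted arrays, against 269, 264 and 365 in wild-type arrays, and its difference of -0.12 was below its pooled SD of 0.23. The dimmest probe set (1431386_s_at) ran from 18.1 to 51.4 in Vhl-deleted and from 32.8 to 56.5 in wild-type arrays.

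Corin was below the filter as well (1419017_at). Its signals were 70.2, 25.7 and 53.6 in Vhl-deleted arrays, against 50.7, 87.9 and 42.5 in wild-type arrays. The genotypes overlapped widely, and the difference of -0.19 was below the pooled SD of 0.41.

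Over the 12 probe sets other than that of Pcsk6 the differences ran from -0.32 to 0.37, with 3 positive and 9 negative, and 10 of them were smaller than 1 pooled SD. Of these 12 probe sets 1 had groups that did not overlap, 1424605_at of Pcsk5 (lower). Over all probe sets with a single symbol the share was 9.96% in either direction. The Pcsk6 groups did not overlap either (higher), but Pcsk6 was selected on its difference between these same arrays and is left out of that count. Of the 13 probe sets 9 passed the filter on low values, and 5 of the 7 genes were in the gene test. Of the convertases outside the 7, Pcsk1 was below the filter, at 20.1 to 48.4 in Vhl-deleted and 29.1 to 59.8 in wild-type arrays, and so was Pcsk1n, which encodes an inhibitor of Pcsk1, at 5.90 to 97.1 in Vhl-deleted and 10.9 to 72.5 in wild-type arrays.

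**Figure D3:**
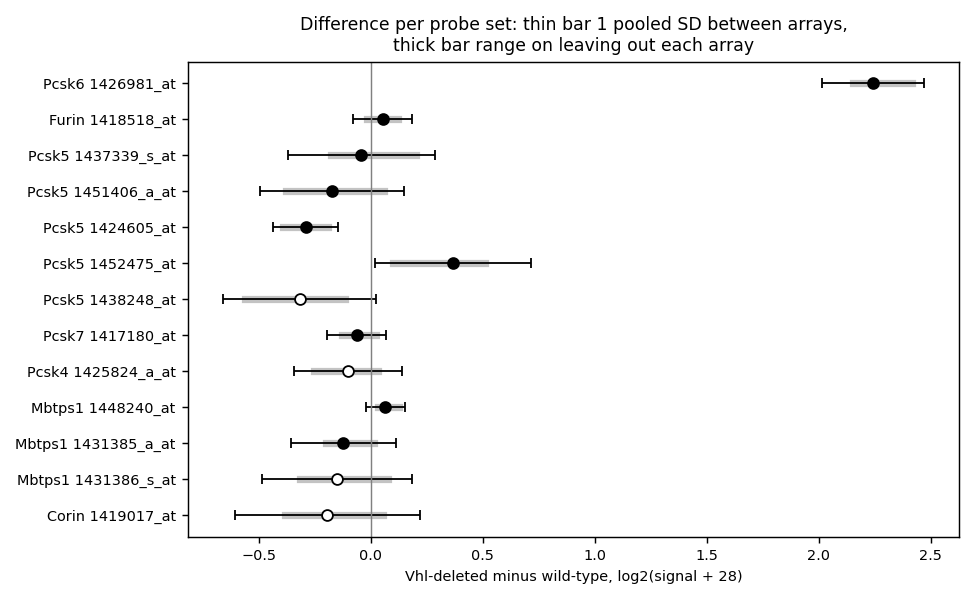
Difference in log2(signal + 28), Vhl-deleted minus wild-type, for the 13 probe sets, with 1 pooled SD between arrays (thin bars) and the range on leaving out each array in turn (thick bars); open symbols are below the filter. Pcsk6 lies at 2.24, and the other 12 probe sets lie between -0.32 and 0.37.

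The genes with the pattern most like that of Pcsk6 over the 6 arrays, by Pearson correlation of log2 levels, were Ngb (r = 0.998), Ero1a (0.993), Pnmal2 (0.989), Sh3glb2 (0.987), Pfkl (0.987) and Egln3 (0.986). The 6 arrays fall into 2 genotypes, so a high value mainly records a gap between them, and any gene with such a gap scores high. Ngb encodes the oxygen-binding neuroglobin and was at 2930, 3119 and 2414 in Vhl-deleted arrays, against 216, 172 and 318 in wild-type arrays. Ero1a, an oxidoreductase of disulfide bond formation in the endoplasmic reticulum, was at 2414, 2441 and 2326 in Vhl-deleted arrays, against 1643, 1591 and 1854 in wild-type arrays. In both genes, as in Pcsk6, replicate 3 was the lowest of the Vhl-deleted and the highest of the wild-type arrays, and the deviations from the genotype means correlated with those of Pcsk6 at 0.93 for Ngb and 0.97 for Ero1a. For the others that correlation was 0.73 (Pnmal2), 0.41 (Sh3glb2), 0.20 (Pfkl) and 0.18 (Egln3). The 6 genes were picked by a correlation over these same arrays that already holds these deviations, so high values follow in part from the choice. Replicate 3 had the highest tubule list mean of the Vhl-deleted arrays (12.62) and the lowest of the wild-type arrays (10.43). The part of that difference between arrays in the shared deviations was not tested. Ngb (adjusted p = 0.00308), Pfkl and Egln3 rose by limma, while Ero1a (difference 0.49, adjusted p = 0.380), Pnmal2 (0.93, adjusted p = 0.0900) and Sh3glb2 (0.28, adjusted p = 0.877) did not pass.

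The genes around the convertases were read in 8 lists of substrates, partners and pathway members, with 113 of 159 genes tested, each counted once. By limma 0 of them rose or fell. At an unadjusted p under 0.05, 12 (10.6%) were higher and 6 (5.31%) lower, where over all genes tested the shares were 2.51% and 2.41%. The lists were chosen with earlier results of these data known and hold genes of the HIF list such as Adm. These shares are therefore a description and carry no test. The differences of the 113 genes had a median of 0.11, against 0.00 over all genes tested. Over the alternatives the medians of the 7 lists other than the growth factor precursors lay between -0.08 and 0.27. The immune, tubule and mesangial marker lists had median differences of 0.67, 0.56 and 0.15, and their part in these counts was not tested.

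Growth factor and hormone precursors had the highest list median, 0.27 over 13 genes, with 0 past limma's threshold and 5 higher and 1 lower at an unadjusted p under 0.05. The endothelin precursor gene Edn2 was at 229, 201 and 193 in Vhl-deleted arrays, against 57.8, 99.4 and 62.1 in wild-type arrays (difference 1.24, limma adjusted p = 0.256). It was kept through its Vhl-deleted arrays, since 2 of its 3 wild-type arrays lay below 97.2, the lowest mean signal among the genes kept, and its difference was 1.53 with a pseudocount of 1 and 0.83 with one at the median of all values. Edn1, whose product matures through furin and endothelin-converting enzyme, was at 503, 549 and 521 in Vhl-deleted arrays, against 379, 339 and 354 in wild-type arrays (difference 0.52, limma adjusted p = 0.528). The adrenomedullin gene Adm, also in the HIF list, was at 5662, 5002 and 4369 in Vhl-deleted arrays, against 1684, 2062 and 3175 in wild-type arrays (difference 1.15, limma adjusted p = 0.363). In these 3 genes, named for the smallest p of the list, every Vhl-deleted array lay above every wild-type array, which held for 5.04% of all genes tested. Adm passed without wild-type replicate 3, with a difference of 1.41 and limma adjusted p of 0.0320, with array weights at 0.0117 and under the tubule covariate at 0.00475; over its 21 alternatives the adjusted p ran from 0.00475 to 0.992. The gene that was lower at an unadjusted p under 0.05, named after its values were seen, was Angptl4, whose secreted product convertases cut, at 724, 788 and 568 in Vhl-deleted arrays, against 830, 1355 and 1860 in wild-type arrays (difference -0.87, limma adjusted p = 0.851). The list median itself depended on the setting, between 0.02 among the brightest 30% of probe sets and 0.43 without Vhl-deleted replicate 1.

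Precursors of the transforming growth factor beta superfamily, the substrates for which Pcsk6 is best known, had a median of 0.14 over 10 tested genes of 25, 9 of them with a positive difference. The list as drawn up includes Bmp1, a tolloid-type metalloproteinase that is no member of the superfamily; without it 8 of 9 tested genes were positive, with a median of 0.15. By limma 0 passed, and 0 were past an unadjusted p of 0.05 in either direction. Tgfb1 was at 1380, 1242 and 1204 in Vhl-deleted arrays, against 978, 1114 and 1172 in wild-type arrays (difference 0.23). Lefty1, which encodes an antagonist of Nodal, was at 161, 129 and 153 in Vhl-deleted arrays, against 105, 125 and 112 in wild-type arrays (difference 0.30). The arrays did not overlap in either gene, which held for 5.04% of all genes in that direction, and both were named for the smallest p of the list. Bmp6 had a difference of 0.31, and each of the 3 had a limma adjusted p of 0.944.

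Metalloproteinase precursors had a median of 0.14 over 16 genes, with 0 called by limma and 4 higher and 1 lower at an unadjusted p under 0.05. Adam12, a membrane-anchored disintegrin protease activated by furin-like convertases, was at 1035, 1146 and 931 in Vhl-deleted arrays, against 765, 601 and 621 in wild-type arrays (difference 0.63, 95% interval 0.30 to 0.96, limma adjusted p = 0.528). Mmp14, a membrane-bound matrix metalloproteinase cut by furin, was at 1263, 1093 and 1102 in Vhl-deleted arrays, against 955, 900 and 870 in wild-type arrays (difference 0.33, limma adjusted p = 0.851). Its target Mmp2, the gelatinase proenzyme, was at 1564, 1681 and 1671 in Vhl-deleted arrays, against 1366, 975 and 1284 in wild-type arrays (difference 0.44, limma adjusted p = 0.833). Groups did not overlap in any of the 3, which held for 5.04% of all genes in that direction. The gene that was lower at an unadjusted p under 0.05, named after its values were seen, was Adam17. It was at 1305, 1195 and 1269 in Vhl-deleted arrays, against 1434, 1459 and 1542 in wild-type arrays (difference -0.23, limma adjusted p = 0.944). Its groups did not overlap either, which held for 5.64% of all genes in that direction.

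Receptor and adhesion precursors, among them the integrin alpha chains that convertases cut, had a median of 0.13 over 25 genes, 0 called by limma and 1 higher at an unadjusted p under 0.05. That gene was Igf1r, the receptor of insulin-like growth factor 1, at 6599, 7439 and 6651 in Vhl-deleted arrays, against 5832, 5836 and 5896 in wild-type arrays (difference 0.23, limma adjusted p = 0.944). The next by p were the N-cadherin gene Cdh2 (0.28) and the endocytic receptor gene Lrp1 (0.21), both with the same adjusted p.

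The natriuretic peptide system, in which Corin acts, had 9 genes tested, 0 called by limma, and 1 higher and 2 lower at an unadjusted p under 0.05. Npr3, the clearance receptor for these peptides, was at 4178, 4157 and 3458 in Vhl-deleted arrays, against 5917, 5115 and 6589 in wild-type arrays (difference -0.57, 95% interval -0.89 to -0.26, limma adjusted p = 0.608). Npr1, the guanylyl cyclase receptor, was at 262, 272 and 245 in Vhl-deleted arrays, against 351, 342 and 504 in wild-type arrays (difference -0.55, limma adjusted p = 0.815). Pde5a, which breaks down cyclic GMP, had a difference of 0.41 (limma adjusted p = 0.782), and -0.09 when all its kept probe sets were averaged. The Npr3 and Npr1 groups did not overlap, with the Vhl-deleted arrays lower, which held for 5.64% of all genes in that direction.

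Genes of the site-1 protease pathway had a median of 0.06 over 18 genes, with 0 called by limma and 1 higher and 1 lower at an unadjusted p under 0.05. Creb3l1, a membrane-bound transcription factor that site-1 protease cuts, was at 277, 257 and 186 in Vhl-deleted arrays, against 427, 319 and 535 in wild-type arrays (difference -0.75, limma adjusted p = 0.782). Sqle, a sterol synthesis gene under the transcription factors that Mbtps1 releases, was at 891, 956 and 1259 in Vhl-deleted arrays, against 851, 683 and 367 in wild-type arrays (difference 0.75, limma adjusted p = 0.944). The groups did not overlap, which held for 5.64% of all genes for the lower direction of Creb3l1 and 5.04% for the higher direction of Sqle; both were named for their small p, and the lowest Sqle array was wild-type replicate 3. Srebf1, which encodes such a factor, had a difference of 0.21.

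Heparan sulfate proteoglycans and other matrix anchors had a median of 0.08 over 17 genes, with 0 called by limma and 1 lower at an unadjusted p under 0.05. That gene was the syndecan gene Sdc2, at 1476, 1346 and 1395 in Vhl-deleted arrays, against 1985, 1730 and 2126 in wild-type arrays (difference -0.46, 95% interval -0.72 to -0.19, limma adjusted p = 0.634). The sulfotransferase gene Hs2st1 was at -0.26 and the glypican gene Gpc3 at 0.26, both with a limma adjusted p of 0.944. The list of convertases outside the 7 and their helper proteins had 6 genes tested, none of them a proprotein convertase. Of these, 0 were called by limma and 0 were past an unadjusted p of 0.05. Scg5, a chaperone of Pcsk2, was at 0.40, the sorting receptor gene Sort1 at -0.15 and the site-2 protease gene Mbtps2 at 0.13.

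**Figure D4:**
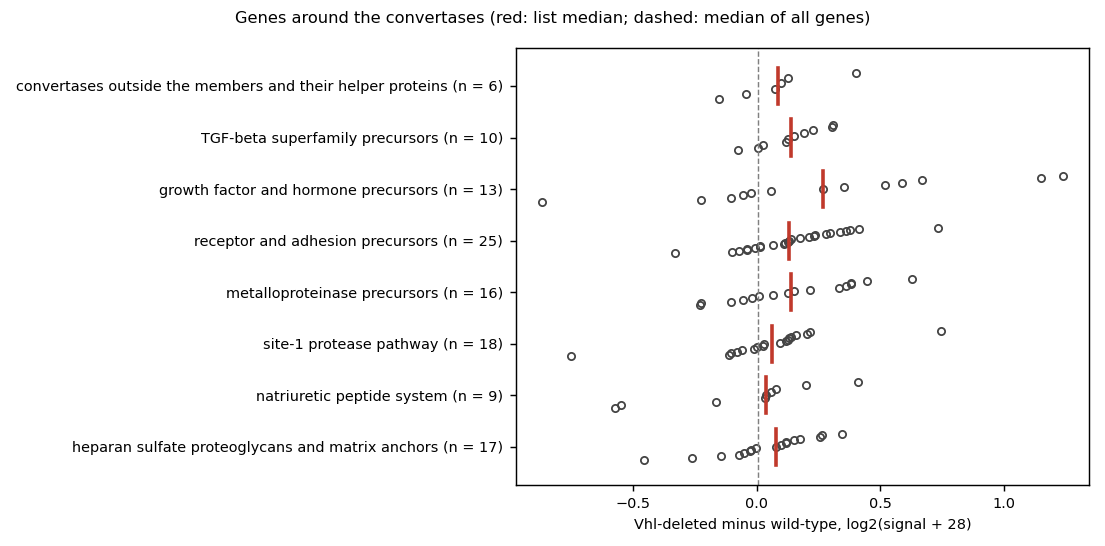
Difference in log2(signal + 28), Vhl-deleted minus wild-type, of each tested gene in the 8 lists (open circles), with the list median in red and the median of all genes tested as a dashed line. The growth factor and hormone precursors reach from -0.87 to 1.24 around a median of 0.27, and the TGF-beta superfamily precursors stay near their median of 0.14.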

How the data were processed

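The authors deposited 1 intensity per probe set and array, MAS5 signals on a linear scale per the submitters' processing notes, which give no version. Each array had a 2% trimmed mean of 500.0, and medians ran from 94.6 to 107.5. Detection calls were not used here, and no arrays held identical values. Of 45101 probe sets, 64 were controls, 34945 had 1 symbol, 932 several and 9160 none; 34741 were matched by Entrez number to a RefSeq gene table.

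Values were taken as log2(signal + 28), the rounded 25th percentile of all values. For the gene test, probe sets in the upper 50% by mean log2 value were kept and the brightest stood for each gene. The genotype term was fitted with lmFit and tested with trended eBayes (limma 3.58.1, R 4.3.3; 7.08 total degrees of freedom), adjusted by Benjamini-Hochberg over 11159 genes and a threshold of 0.05. The script was tested on simulated data. Genes outside the family were named by rule: in each list all that passed or, failing that, the 3 with the smallest p, and the 6 most correlated with Pcsk6. Angptl4 and Adam17 were named outside this rule, after their values were seen. The members and lists were chosen with earlier results of these data known. The labels call the arrays biological replicates.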

Additional observations from a re-analysis of the deposited data

How the results depend on the processing

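The Pcsk6 difference kept its sign in all 13 alternatives run on it, between 2.15 and 2.43, and none of the 13 probe sets moved by more than 1 pooled SD in any of them; the sign turned in at least 1 alternative in 8 of the other 12. The counts of genes called moved more. Against 8 risen and 1 fallen genes, there were 32 and 4 with the tubule covariate, 30 and 3 with array weights, 15 and 3 at an adjusted p of 0.1, and 1 and 0 with the replicate number as a block. Same-numbered arrays had correlations of their deviations of -0.02, -0.41 and -0.51, against -0.38 to 0.58 for differently numbered arrays. Deviations within a group of 3 arrays depend on each other, so these values cannot show whether the replicate numbers pair the arrays. Ranking probe sets by mean linear signal, chosen after seeing the data, gave 14 risen genes, with the unrounded pseudocount too (14). With median scaling, averaged probe sets or no intensity trend 0 fell. Leaving out each array gave 1 to 13 risen and 0 to 1 fallen genes, with 1 without Vhl-deleted replicate 1, 3 without Vhl-deleted replicate 2, 5 without wild-type replicate 2 and 13 without wild-type replicate 3. The growth factor list had 1 called gene with the tubule covariate and with array weights, and 0 to 1 on leaving out each array. The podocyte list had 1 with the tubule covariate. The HIF list had 3 called genes, 8 with the covariate, 7 with array weights, 1 with the block and 1 to 5 on leaving out each array. Pde5a turned to -0.0926 with averaged probe sets. The causes were not tested. Probe sets below the filter (those of Pcsk4 and Corin, 1438248_at of Pcsk5 and 1431386_s_at of Mbtps1) are limited by their signal. The 3 arrays per genotype limit every value.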
